A study of Mus musculus with 72 samples.

Results

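The transcription factor gene Srebf1 and 9 genes of fatty acid synthesis that are textbook targets of its protein were followed across 6 radiation doses in mouse liver and lung. The 9 others were Fasn, Acaca, Acacb, Acly, Scd1, Elovl6, Me1, Pnpla3 and Thrsp. They were found on the arrays as every non-control probe whose RefSeq transcript identifier leads to one of these symbols. That gave 18 probes of 56605 and 10 genes of 23787 with a symbol. Of all probes, 34566 got a symbol in this way. Probes with an Ensembl transcript or another identifier were not mapped, so further probes of these genes may exist. All 10 genes were found, with 4 probes for Acaca, 2 each for Acacb, Acly, Me1, Pnpla3 and Thrsp, and 1 each for Srebf1, Fasn, Scd1 and Elovl6. Where a gene had several probes, the brightest over all arrays stands for it, and the others are described separately.

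The animals were female C57BL/6 J mice, 6 to 8 weeks old. They received X-rays once over the whole body, at 12, 8, 4, 2 or 1 Gy, or were sham irradiated (0 Gy). Livers and lungs were taken 48 h later, with 3 mice per dose, so that 18 liver and 18 lung mRNA arrays entered. The strain is a wild type and no transgene or drug was used. Levels are log2 intensities after background correction and quantile normalization, and a level of one probe cannot be set against that of another. Differences are given in log2 units against 0 Gy, so that -1 is a 2-fold fall, with the standard error (SE) from limma. A gene was called when its difference passed 1 in size and its p-value, adjusted by Benjamini-Hochberg over all probes of the comparison, was below 0.05. The label numbers of the mice are given with their values where 1 animal matters.

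Srebf1 encodes the precursor of SREBP-1, a membrane-bound factor of the endoplasmic reticulum that is escorted to the Golgi, cut there by proteases, and then enters the nucleus. In liver, insulin and liver X receptors raise transcription of the SREBP-1c form, and the factor switches on the enzymes that turn citrate into saturated and monounsaturated fatty acids. The liver is a main site of this synthesis, lung alveolar type 2 cells use it for surfactant lipids, and adipocytes also express the pathway. Whether the Srebf1 probe reads the SREBP-1a form, the SREBP-1c form or both is not given in the sources used here.

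The share of spots well above background ran from 46.1% to 54% on the liver arrays and from 54.1% to 64% on the lung arrays, and no spot was saturated on any array. The 11 hepatocyte markers summed to 21.49 to 21.59 on the log2 scale on every liver array, and the alveolar type 2 markers, led by the surfactant gene Sftpc, summed to 19.57 to 19.94 on every lung array. Arrays shared 5 slides, and within a tissue no array of 4, 8 or 12 Gy shared a slide with 0 Gy. The liver arrays of 0 and 1 Gy and 2 of the 2 Gy arrays lay on slide 1, the remaining 2 Gy array, all 4 and 8 Gy arrays and 1 of the 12 Gy arrays on slide 2, and the other 2 arrays of 12 Gy on slide 3. Among the lung arrays, 0 and 1 Gy were on slide 3, 2 and 4 Gy and 2 arrays of 8 Gy on slide 4, and the remaining 8 Gy array with all of 12 Gy on slide 5. Slide 5 had a scan day of its own. The 4 arrays of slide 5 had 54.1% to 54.8% of spots well above background, against 59.2% to 64% on the other lung arrays. Values with slide as a term are given together for the liver doses, and for the lung and the tissue comparisons, and none were computed for the gene lists.

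The promoter sequences of the genes that were called at 12 Gy in the liver are shown because these genes fell together, and that of Thrsp because it fell with dose. They come from the RefSeq promoter table for GRCm38.p6, which held 12 windows for 9 of the 10 genes and none for Scd1. Printed 5′ to 3′ on the strand of the gene are the 250 bases before the start of Acly (chr11:100528001-100528250, minus strand), Elovl6 (chr3:129532136-129532385, plus strand) and Thrsp (chr7:97417551-97417800, minus strand). For Srebf1 and Fasn the windows lie within the span of the gene's other RefSeq transcripts, so only 30 bases are printed. They come from chr11:60210472-60210501 and chr11:120824592-120824621, both on the minus strand. Each was picked as the stretch of its window with the most letters of the motifs marked below. Srebf1 has further windows, and the one used here is the only one of them that holds both boxes. Capitals mark matches, on either strand, to a CCAAT box (ATTGG or its complement CCAAT) or a GC box (GGGCGG or its complement CCGCCC).
Acly: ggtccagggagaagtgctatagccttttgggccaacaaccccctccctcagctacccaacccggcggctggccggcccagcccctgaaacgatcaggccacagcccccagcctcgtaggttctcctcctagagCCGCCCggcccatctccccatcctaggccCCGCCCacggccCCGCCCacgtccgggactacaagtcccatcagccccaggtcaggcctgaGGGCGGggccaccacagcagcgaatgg
Elovl6: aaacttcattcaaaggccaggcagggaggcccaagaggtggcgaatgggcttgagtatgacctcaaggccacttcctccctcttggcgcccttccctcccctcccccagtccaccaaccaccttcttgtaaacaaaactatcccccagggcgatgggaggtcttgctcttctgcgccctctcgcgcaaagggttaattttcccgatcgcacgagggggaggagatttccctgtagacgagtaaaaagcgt
Thrsp: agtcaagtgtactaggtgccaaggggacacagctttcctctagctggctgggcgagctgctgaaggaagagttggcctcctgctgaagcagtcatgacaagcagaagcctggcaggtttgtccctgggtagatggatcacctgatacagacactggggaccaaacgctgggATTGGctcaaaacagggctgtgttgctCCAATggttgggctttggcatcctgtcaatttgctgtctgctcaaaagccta
Srebf1: ATTGGccatgtgcgctcacccgagGGGCGG
Fasn: cggcctcggtgtCCAATTGGtttcgatgtg

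Both motifs are known to bind partners of SREBP-1, NF-Y at CCAAT boxes and Sp1 at GC boxes. Of the 12 windows, 8 overlap the span of their gene, and those of Acaca and Acacb lie well inside it. They need not be the main promoter of the gene. CCAAT boxes were present in 7 of the 12 windows, against 33.8% of all 32851 windows of the same length in the table. GC boxes were present in 5 of the 12, against 32.7% of all windows. Some genes have several windows, and by gene the counts were 6 of 9 for CCAAT boxes and 4 of 9 for GC boxes. The Fasn window held 3 CCAAT matches, 2 of them overlapping in the 30 bases printed, and the Acly window held 4 GC boxes. The 8-letter core of the sterol regulatory element (TCACNCCA or its complement) and the E-box CACGTG, also searched on both strands, were in 0 of the 12 windows, against 3.67% and 6.02% of all windows. A match is only a description of the letters, and a missing match says only that these letters are not in this window. The windows were searched for 9 genes chosen with their behaviour known, so that no count here was tested.

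Srebf1 fell in the liver from 4 Gy upward. This direction, read on the only Srebf1 probe that was mapped, is opposite to the one that the study's text gives for Srebf1 with dose. No alternative that was run turned the sign at 4, 8 or 12 Gy or for the trend. Its log2 levels at 0 Gy were 15.16, 15.13 and 14.63. At 2 Gy they were 14.42, 14.20 and 13.90, and at 12 Gy 13.53, 13.54 and 13.25. No mouse at 2, 4, 8 or 12 Gy reached the lowest control, while the 1 Gy mice, at 14.67, 14.82 and 15.07, lay within the control range. At 4 Gy Srebf1 was 2.24-fold lower than at 0 Gy (log2 difference -1.16, SE 0.181, adjusted p = 0.00348, limma with Benjamini-Hochberg). The fall was 2.57-fold at 8 Gy (adjusted p = 0.000538) and 2.90-fold at 12 Gy (adjusted p = 0.000175). At 2 Gy the difference of -0.80 did not pass the adjusted p of limma (0.0733). The fitted linear trend amounted to -1.48 over 12 Gy (SE 0.223, adjusted p = 0.000346). In bulk tissue, fewer cells of a type and less RNA per cell cannot be told apart, which holds for every level in the text.

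**Figure D1:**
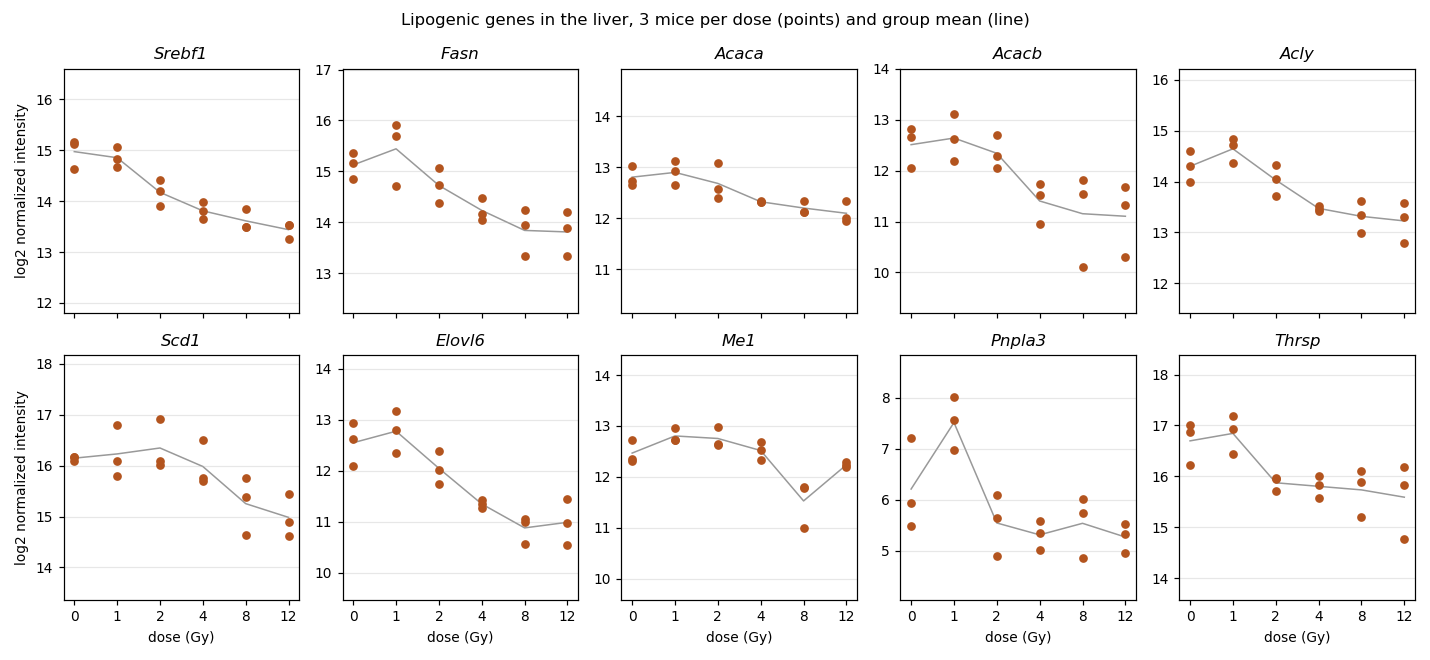
Log2 normalized intensity (vertical axis) of the 10 lipogenic genes in the liver against dose in Gy (horizontal axis, evenly spaced groups). Each point is 1 mouse, 3 per dose, and the line joins group means. Srebf1 and Elovl6 step down from 2 to 8 Gy, whereas Me1 is lowest at 8 Gy, at 10.99 to 11.80.

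Among the enzymes that make the carbon chain, Fasn and Acly fell to less than the level of any control mouse at 4, 8 and 12 Gy. Acly encodes ATP citrate lyase, which splits citrate into cytosolic acetyl-CoA. Its levels were 14.31, 14.60 and 13.99 at 0 Gy and 12.80, 13.58 and 13.30 at 12 Gy. The difference at 12 Gy was -1.07 (SE 0.229, adjusted p = 0.0106, limma), and at 8 Gy it was -0.98 (adjusted p = 0.0157), just short of the fold limit. Fasn, which encodes the multi-domain fatty acid synthase that produces palmitate, was at 15.16, 15.36 and 14.86 in the controls. At 8 Gy the 3 mice had 14.25, 13.94 and 13.33, and at 12 Gy 13.34, 14.20 and 13.89. Both groups lay below every control, with differences of -1.29 (SE 0.319, adjusted p = 0.0211) and -1.32 (SE 0.319, adjusted p = 0.0210, limma). At 1 Gy Fasn was spread from 14.72 to 15.91 and overlapped the controls.

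The 2 acetyl-CoA carboxylases make malonyl-CoA, Acaca in the cytosol for synthesis and Acacb at the mitochondrial outer membrane, where malonyl-CoA restrains fatty acid oxidation. Acaca was at 13.03, 12.73 and 12.66 in the controls and at 11.95, 12.34 and 12.00 at 12 Gy. Its difference of -0.71 (SE 0.177, adjusted p = 0.0242, limma) passed the p but not the fold limit, as did that of -0.60 at 8 Gy (adjusted p = 0.0432). The Acaca groups at 4, 8 and 12 Gy lay below all controls, and the 3 mice at 4 Gy were close together, at 12.32, 12.33 and 12.32. Acacb varied more between mice, at 12.67, 12.81 and 12.05 at 0 Gy and 10.31, 11.67 and 11.33 at 12 Gy. The 12 Gy difference of -1.41 had an SE of 0.435 and did not pass (adjusted p = 0.0671, limma), although every 4, 8 and 12 Gy mouse was below the lowest control. Over the 6 doses the Acacb trend of -1.65 was called (SE 0.368, adjusted p = 0.00728), and the Acaca trend of -0.81 passed the p only (adjusted p = 0.00212). For Acacb the study's text, too, gives a decrease at 8 and 12 Gy.

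Elovl6 had the largest trend among the brightest probes of the 10 genes in the liver. It encodes the elongase that extends palmitate to stearate. The controls had 12.93, 12.63 and 12.09, the 4 Gy mice 11.43, 11.35 and 11.26, the 8 Gy mice 11.06, 11.00 and 10.57, and the 12 Gy mice 10.55, 11.44 and 10.97. All 9 mice from 4 Gy upward were below the lowest control. The fall was 2.30-fold at 4 Gy, 3.18-fold at 8 Gy and 2.95-fold at 12 Gy (adjusted p = 0.0271, 0.00218 and 0.00285, limma), and the trend was -1.84 (SE 0.304, adjusted p = 0.000773). Scd1, the stearoyl-CoA desaturase that introduces the double bond of oleate, moved later. Its controls were close together at 16.17, 16.10 and 16.17, the 4 Gy mice still had 15.75, 15.69 and 16.51, and the 12 Gy mice had 14.61, 15.44 and 14.90. The 8 and 12 Gy mice were all below the controls and the 4 Gy mice were not. The 12 Gy difference of -1.17 (SE 0.344) did not pass (adjusted p = 0.0556, limma), and the Scd1 trend of -1.40 was called (SE 0.268, adjusted p = 0.00236). The study's text gives the same direction, with Scd1 lower at 8 and 12 Gy, doses at which it was not called here.

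Me1, the cytosolic malic enzyme that supplies NADPH, did not follow the order of the doses. Its levels were 12.32, 12.72 and 12.36 at 0 Gy, 12.96, 12.73 and 12.72 at 1 Gy, 11.79, 11.80 and 10.99 at 8 Gy and 12.19, 12.23 and 12.29 at 12 Gy. The 8 Gy mice were the lowest and the 12 Gy mice lay just under the controls. The 8 Gy difference of -0.94 (SE 0.195) passed the p of limma (0.00862) and not the fold limit, and that at 12 Gy was -0.23 (SE 0.195, adjusted p = 0.578). Between 8 and 12 Gy Me1 differed by 0.71 (95% interval 0.29 to 1.13), with an adjusted p of 0.385 from limma.

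Thrsp, known as Spot 14, is a small protein that promotes fatty acid synthesis. Its level stood at 16.87, 17.00 and 16.22 in the controls, at 15.97, 15.94 and 15.71 at 2 Gy and at 14.77, 16.18 and 15.82 at 12 Gy. Every mouse from 2 Gy upward was below the lowest control, with a group difference of -0.82 already at 2 Gy (SE 0.332, adjusted p = 0.338, limma) and -1.11 at 12 Gy (adjusted p = 0.0595). No single dose was called for Thrsp, and its trend of -1.08 was (SE 0.315, adjusted p = 0.0355).

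Pnpla3, a lipid droplet protein of the patatin family that is induced by SREBP-1c, was close to background in the liver. Its brighter probe read 5.48, 7.21 and 5.94 at 0 Gy, 8.01, 6.97 and 7.57 at 1 Gy and 5.53, 4.95 and 5.32 at 12 Gy. The 12 Gy spots were not well above background on any array and overlapped the controls, and the difference of -0.95 was not called (95% interval -1.87 to -0.02, adjusted p = 0.231, limma). At 1 Gy the level was 1.30 higher (SE 0.432), overlapped the controls and did not pass (adjusted p = 0.556). The other probe (A_55_P2025514) read 5.66, 7.16 and 6.96 at 0 Gy and 4.50, 4.72 and 4.32 at 8 Gy, where no array was well above background. On that probe Pnpla3 was at least 4.23-fold lower at 8 Gy (adjusted p = 0.0140, limma) and its trend was -2.02 (SE 0.474, adjusted p = 0.00993), while at 12 Gy 1 mouse had 6.15 and the groups overlapped.

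Counted over the 10 genes, 0 were called lower in the liver at 1 Gy (0.0209% of the 38362 probes tested were), 0 at 2 Gy (0.164%), 2 at 4 Gy (0.623%), 3 at 8 Gy (1.36%) and 4 at 12 Gy (1.33%). None was called higher at any dose. With limma, 1 gene at 1 Gy and 2 at 2 Gy had an unadjusted p below 0.05, beside 7.08% and 11.8% of probes. The genes called were Srebf1 and Elovl6 at 4 Gy, with Fasn added at 8 Gy and Acly at 12 Gy. Without the fold limit, 6 genes were lower at an adjusted p below 0.05 at 8 Gy (4.95% of probes) and 5 at 12 Gy (4.1%). The dose trend was called lower for 7 genes (1.13% of probes), all but Acaca, Me1 and Pnpla3, and 8 were lower at the adjusted p alone (5.47%). The median difference of the 10 genes was 0.19 at 1 Gy, -0.34 at 2 Gy, -0.90 at 4 Gy, -0.97 at 8 Gy and -1.14 at 12 Gy, and the median over all probes lay between -0.00311 and 0.0101 at these doses. These 5 comparisons share the same 3 control mice.

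Slide moved with dose in the liver, and its part in these falls could not be separated fully. With slide as a fixed term, 0 of the 10 genes were called at 4, 8 or 12 Gy or for the trend, where 70, 265, 323 and 104 of all probes still were. The differences at 12 Gy in that fit were -1.03 for Srebf1 (adjusted p = 0.235), -1.26 for Fasn (adjusted p = 0.413), -1.01 for Acly (adjusted p = 0.296) and -1.53 for Elovl6 (adjusted p = 0.215, limma). All 4 stayed below 0 at 12 Gy, but this sign rests on few arrays. The liver doses from 4 Gy upward share no slide with 0 Gy. Only 1 array of 2 Gy (mouse 23) on slide 2 links that slide to slide 1, and 12 Gy has 1 array on slide 2. Other values shrank more in that fit, with the Srebf1 trend going from -1.48 to -0.68 and its 4 Gy difference from -1.16 to -0.75, that of Elovl6 at 4 Gy from -1.20 to -0.73, and that of Fasn at 8 Gy from -1.29 to -0.76. The brighter Pnpla3 probe, never called, turned from -0.95 to 0.30 at 12 Gy and from -1.33 to 0.60 for the trend. With slide as a random block, 1, 2 and 4 genes were called at 4, 8 and 12 Gy and 6 for the trend. The calls lost were Elovl6 at 4 Gy (adjusted p = 0.0743), Fasn at 8 Gy (adjusted p = 0.0545) and the Thrsp trend (adjusted p = 0.0846, limma). Slide 1 held 0 and 1 Gy whole and 2 mice of 2 Gy, and within it Srebf1 was 0.67 lower in the 2 Gy mice than in the controls, against 0.80 lower over all 3.

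The order of the dose groups was read from all pairs of doses. Against 1 Gy, 4 genes were called lower at 4 Gy (0.18% of probes), 6 at 8 Gy (0.485%) and 6 at 12 Gy (0.618%). Against 2 Gy, 2 genes were called lower at 8 Gy (0.365%), Elovl6 by 1.17 and Me1 by 1.22, and 1 at 12 Gy (0.503%), Scd1 by 1.36. Pnpla3 was among the genes called against 1 Gy, at -2.21 for 4 Gy (SE 0.432, adjusted p = 0.0299, limma), since its 1 Gy mice were the highest. No pair of neighbouring doses held a call. No gene was called at 2 against 1 Gy, 4 against 2 Gy, 8 against 4 Gy or 12 against 8 Gy, where 0% of all probes were called lower in each case. In limma 6, 3, 1 and 1 genes had an unadjusted p below 0.05 in these pairs, beside 10.4%, 10.8%, 10.5% and 9.78% of probes. Some neighbours lay apart all the same. From 1 to 2 Gy Pnpla3 differed by -1.97 (95% interval -2.90 to -1.05) and Srebf1 by -0.68 (95% interval -1.07 to -0.30), and from 4 to 8 Gy Me1 differed by -0.99 (95% interval -1.41 to -0.57), with no overlap between the groups of mice. Between 8 and 12 Gy Srebf1 differed by -0.17 (95% interval -0.56 to 0.21) and Fasn by -0.03 (95% interval -0.71 to 0.65).

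In the lung few of the same genes were called. Most had a mean below that of the controls at every dose but 2 Gy. The log2 differences were below 0 for 9, 9, 9 and 8 of the 10 genes at 1, 4, 8 and 12 Gy. Their medians were -0.48, -0.13, -0.32 and -0.22, and 49%, 45.5%, 45.2% and 43% of probes were below 0. At 1 Gy the median level of the 10 genes was 12.61 on the array of mouse 2. It was 13.63 and 13.67 on the other 1 Gy arrays, and from 13.61 to 13.85 on the controls. The groups lay apart from the controls for 2, 2, 2 and 4 of the 10 genes at 1, 4, 8 and 12 Gy. How many of all probes lay apart in this way was not counted. For 2 Gy, 5 of the 10 genes were below 0, with a median of 0, beside 48.3% of probes. Srebf1 was at 13.93, 13.66 and 13.61 at 0 Gy and 13.71, 14.18 and 13.78 at 12 Gy, and all 18 lung values lay between 13.29 and 14.18. The 12 Gy difference was 0.15 (95% interval -0.19 to 0.50, adjusted p = 0.534, limma), an interval that does not reach a 2-fold change in either direction. Fasn was at 16.05, 15.90 and 16.34 in the controls and 16.02, 15.70 and 15.96 at 12 Gy (difference -0.20, 95% interval -0.81 to 0.41). Acacb, at 11.81, 10.97 and 12.12 in the controls and 12.40, 11.94 and 11.63 at 12 Gy, differed by 0.36 (SE 0.323). Elovl6 and Thrsp differed at 12 Gy by -0.17 (SE 0.503) and -0.30 (SE 0.506), so that their intervals reached beyond a 2-fold fall.

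**Figure D2:**
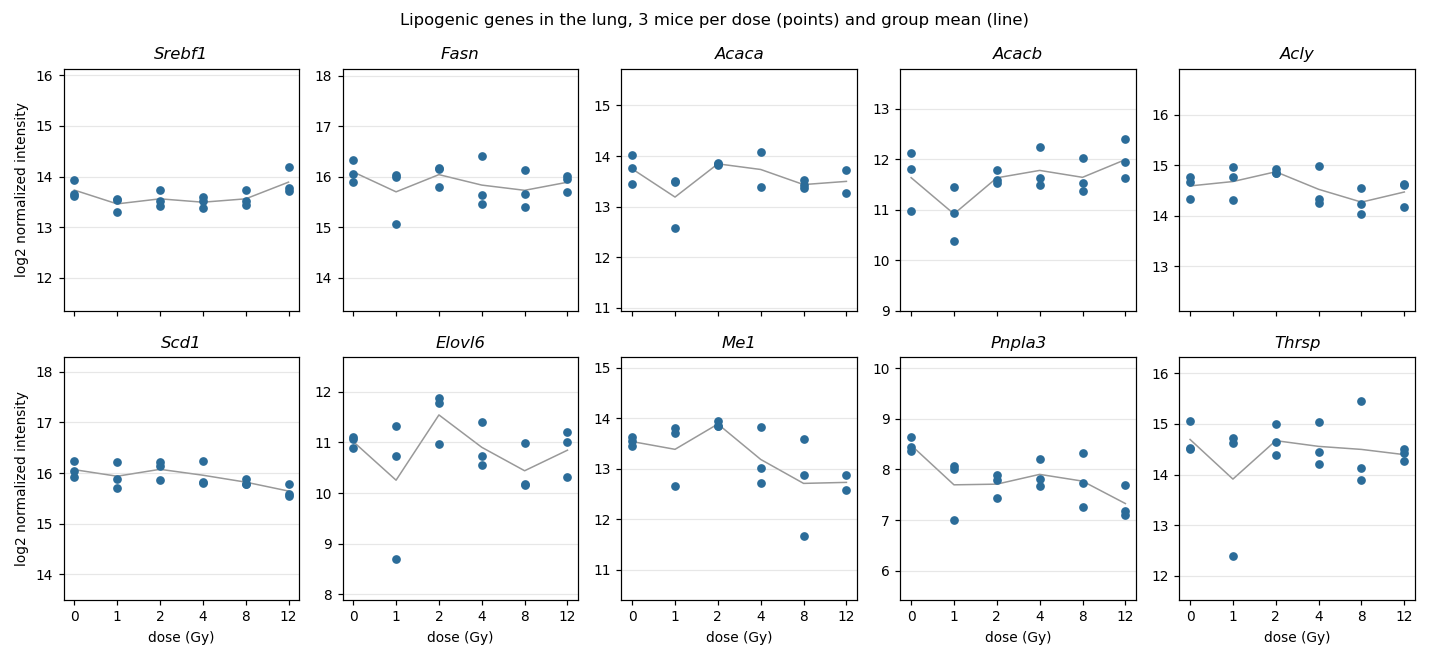
Log2 normalized intensity (vertical axis) of the same 10 genes in the lung against dose in Gy (horizontal axis, evenly spaced groups). Each point is 1 mouse, up to 3 per dose, and the line joins group means. The lowest point of Elovl6, at 8.70, and that of Thrsp, at 12.39, belong to the same 1 Gy mouse.

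Pnpla3 and Me1 were the lung exceptions. Pnpla3 was well above background on every lung array at 0 Gy and read 8.44, 8.36 and 8.64 at 0 Gy. At 2 Gy it read 7.80, 7.90 and 7.43 and at 12 Gy 7.69, 7.18 and 7.11. Every irradiated group lay below the controls, and the 12 Gy fall of 1.15 on the log2 scale was called (SE 0.297, adjusted p = 0.0136, limma). Its other probe showed -0.38 at 12 Gy (SE 0.415, adjusted p = 0.556) and overlapped the controls, so that the 2 probes disagree. Me1 was at 13.62, 13.55 and 13.44 in the controls and at 12.58 and 12.88 in the 2 mice measured at 12 Gy, the other having an outlier spot that was left out. Its trend of -1.06 was called (SE 0.367, adjusted p = 0.0357), while its 12 Gy difference of -0.80 was not (adjusted p = 0.231, limma). The Me1 trend was -0.63 on the second probe (adjusted p = 0.0961).

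Of the 10 genes, 0 were called lower in the lung at 1 Gy (0.0114% of 43979 probes), 0 at 2 Gy (0.375%), 0 at 4 Gy (1.22%), 0 at 8 Gy (1.99%) and 1 at 12 Gy (4.27%). The trend was called lower for 1 gene (4.31% of probes). With limma, 3, 1, 0 and 1 genes had an unadjusted p below 0.05 at 1, 2, 4 and 8 Gy, beside 5.52%, 7.67%, 13.9% and 16.4% of probes. The median difference at 12 Gy was -0.22, beside a median of 0.0942 over all probes. Neither call held with slide as a random block, and with slide as a fixed term the doses from 2 Gy upward could not be compared with 0 Gy, since they share no slide. Dose and slide cannot be told apart there. The Pnpla3 call was also lost without 12 Gy mouse 16, and the Me1 trend without 1 Gy mouse 12 or 22, 8 Gy mouse 25 or 12 Gy mouse 6.

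One lung array stood apart both in these genes and in adipocyte transcripts. The lung of 1 Gy mouse 2 was the lowest of 18 arrays for 7 of the 10 genes, among them Fasn at 15.07, and its 11 adipocyte markers summed to 16.17, where the other lung arrays had 17.25 to 18.65. Adipoq, the adiponectin gene, was at 11.80 in that mouse and between 12.95 and 14.59 in the others. Ucp1, which marks brown adipocytes, ranged from 8.26 in that mouse to 15.07 in 12 Gy mouse 6. By dose, the marker sums ran from 17.59 to 18.55 at 0 Gy and from 17.25 to 18.50 at 12 Gy, and 0 of the 11 markers were called in the lung at 12 Gy. On 12 Gy mouse 16 Ucp1 and Cidea were outlier spots, so that its sum of 17.25 lacks them. Whether adipocytes in the samples set the levels of the lipogenic genes was not tested. Without 1 Gy mouse 2 the counts of genes called in the lung stayed at 1 at 12 Gy and 1 for the trend, and the Thrsp trend went from -0.01 to -0.30 (adjusted p = 0.382, limma).

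**Figure D3:**
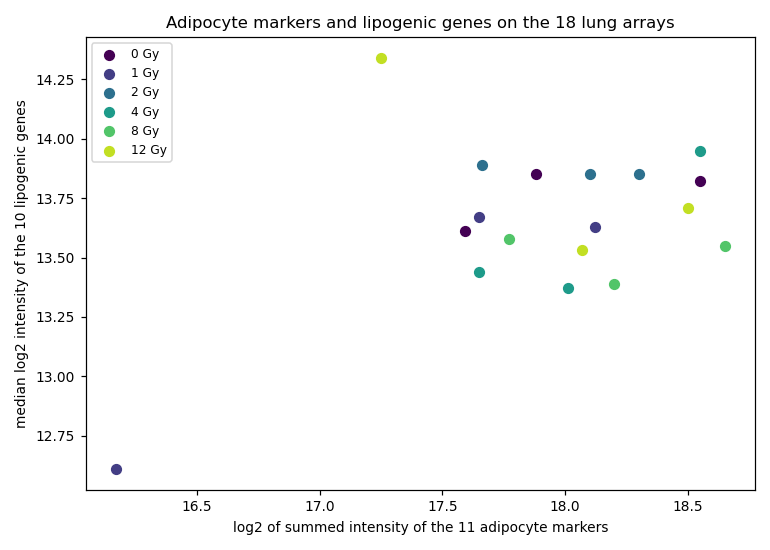
Median log2 intensity of the 10 lipogenic genes (vertical axis) against the log2 of the summed intensity of 11 adipocyte markers (horizontal axis) on the 18 lung arrays, coloured by dose. The 1 Gy array at the lower left has a marker sum of 16.17 and a median of 12.61, and the highest median, 14.34, is that of 12 Gy mouse 16, which lacks 2 markers.

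In the liver the adipocyte-defining Adipoq was at 5.44 and Ucp1 at 4.21 on average at 0 Gy, near background. The sum of the adipocyte markers in the liver, 16.60 to 16.95 at 0 Gy and 15.80 to 16.11 at 12 Gy, fell beside the lipogenic genes and was led by Car3, a carbonic anhydrase that hepatocytes express too (-0.82 at 12 Gy, adjusted p = 0.00295, limma, under the fold limit). Fabp4, a fatty acid binding protein, also passed the p alone (-0.99, adjusted p = 0.00325), and 0 of the 10 tested adipocyte markers were called in the liver. Of the 11 hepatocyte markers 0 were called at 12 Gy, with a median of -0.01. Their sum and that of the alveolar type 2 markers are led by the brightest probes, such as Alb, the albumin gene, whose values quantile normalization holds nearly equal on every array. Erythroid markers fell in the same livers, and their sum went from 16.41 to 16.53 at 0 Gy to 11.45 to 11.59 at 12 Gy. At 12 Gy 4 of 6 tested erythroid markers, 3 of 6 B cell markers and 3 of 6 T cell markers were called lower in the liver, and 0 of 7 macrophage markers were, although 5 of the 7 were lower at the adjusted p alone, with a median of -0.67. In the lung at 12 Gy 7 of 7 B cell, 7 of 7 T cell and 4 of 5 tested erythroid markers were called lower. The part of these cell types in the lipogenic levels was not tested.

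The difference between the tissues was tested on the 36 arrays normalized together, as lung trend minus liver trend. It was called higher for 3 genes (3.57% of 47376 probes). For Srebf1 the trend was -1.50 in liver and 0.26 in lung, a difference of 1.77 (SE 0.297, adjusted p = 0.000144, limma). For Fasn the trends were -1.65 and -0.14 (difference 1.51, SE 0.391, adjusted p = 0.00708), and for Acacb -1.47 and 0.63 (difference 2.10, SE 0.472, adjusted p = 0.00232). Differences of 0.91 for Acly and 0.96 for Scd1 passed the p of limma only (0.0368 and 0.0207). For Elovl6 the difference of 1.41 had an SE of 0.580 and did not pass (adjusted p = 0.0927). Among the brightest probes, that of Me1 was the 1 with a steeper fall in lung, by 0.57 (adjusted p = 0.462). The second Me1 probe went the other way, with a difference of 0.30 (adjusted p = 0.718, limma). With slide as a fixed term, an alternative chosen after seeing the data, the differences were 0.50 for Srebf1 (adjusted p = 0.961), 0.81 for Fasn (adjusted p = 0.953) and 1.59 for Acacb (adjusted p = 0.869), and 0 of all probes were called. As a random block, chosen in the same way, they were 1.63, 1.38 and 1.98, all called.

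**Figure D4:**
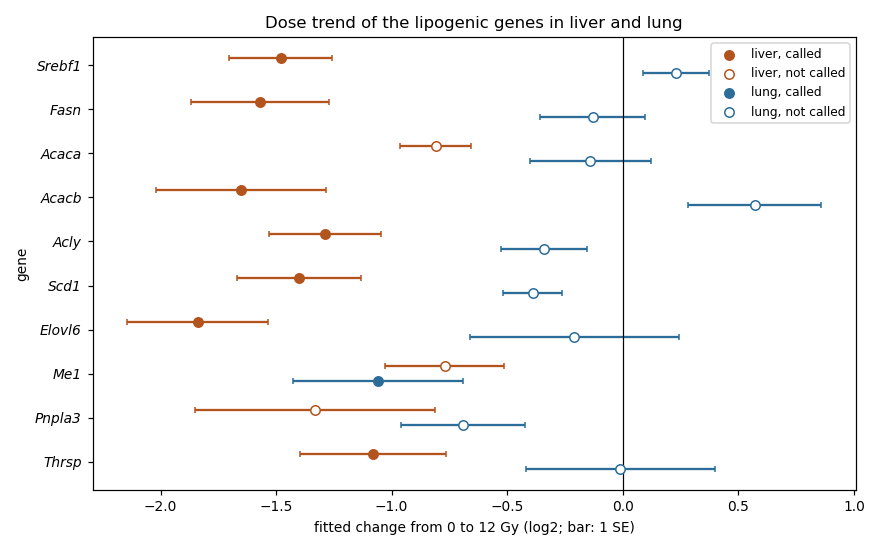
Fitted log2 change from 0 to 12 Gy (horizontal axis, bars are 1 SE) for each of the 10 genes (vertical axis) in liver and lung. Filled points were called and open points were not, 7 filled in liver and 1 in lung.

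Without irradiation, 4 of the 10 genes had lower levels in lung than in liver (16.8% of probes were called lower). Srebf1 was at 15.17 ± 0.345 in liver and 13.58 ± 0.205 in lung (SD, n = 3 each), 3.03-fold lower in lung (adjusted p = 1.66e-08, limma). Elovl6 was 5.05-fold lower (12.82 ± 0.367 and 10.48 ± 0.130, adjusted p = 4.9e-05, limma), Thrsp 4.59-fold (adjusted p = 0.000157) and Acacb 3.08-fold (adjusted p = 0.000731). Groups of these 4 genes did not overlap between the tissues. Neither did those of Scd1, which was not called (16.27 to 16.33 in liver and 15.69 to 16.02 in lung). How many of all probes lay apart in this way was not counted, and 52.8% differed between the tissues at the adjusted p alone. Fasn was 0.53 higher in lung (SE 0.314) and Acly 0.07 (SE 0.221), neither called. The sign for Acly turned under both scalings that do not force the tissues to one distribution, to -1.10 and -1.23, and Fasn, Acaca and Me1 changed sign there without being called. Those scalings moved the median of all probes to -0.28 and -0.32. With slide as a fixed term, Srebf1 was 1.07 lower in lung and missed the threshold (adjusted p = 0.0532), as did Elovl6 (-2.52, adjusted p = 0.0720, limma). In that fit 3 of the 10 genes were called, beside 32% of probes in either direction, and not all of the 3 were among the 4 above.

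Further probes of the same genes differed in how far they followed the brightest. The second Acacb probe (A_66_P110803), a dim one, did not show the change of the first in the liver. It differed by -0.02 at 4 Gy, -0.03 at 8 Gy and -0.47 at 12 Gy, and its trend was -0.31 (adjusted p = 0.394, limma). Its tissue difference in trend was 0.54 (adjusted p = 0.236). The second Thrsp probe gave -1.14 at 12 Gy and a trend of -1.08 (adjusted p = 0.0693), against -1.11 and -1.08 for the first. The second Acly probe gave a trend of -0.91 (adjusted p = 0.0178, limma) and the second Me1 probe one of -1.15 (adjusted p = 0.0505). One Acaca probe (A_52_P318040) had -0.54 in liver at 12 Gy and was called in lung, at -1.21 (SE 0.341, adjusted p = 0.0206), where the brightest Acaca probe had -0.25 (SE 0.289). Another, faint Acaca probe (A_55_P2084703) was not well above background on any 12 Gy lung array and was at least 1.70-fold lower there (adjusted p = 0.0242, limma, not called). The fourth Acaca probe (A_55_P2121392) was well above background on 1 of 36 arrays, a liver array of 2 Gy. In the liver at 2 Gy it differed by 0.95 (adjusted p = 0.122, limma, not called). The other Acaca probes had -0.12, -0.28 and -0.51 at that dose. The study's text gives a significant rise of Acaca at 2 Gy.

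Other genes of the pathway were read as lists. Among 21 regulators of SREBP-1, which hold its escort Scap, the retention proteins Insig1 and Insig2, the liver X receptors and the insulin signalling genes, 0 were called at 12 Gy in the liver, and the median difference was -0.02. Scap was -0.37 (adjusted p = 0.134, limma), Insig1 -0.08 and Insig2 0.26 at 12 Gy. The liver X receptor gene Nr1h3 was -0.17 (adjusted p = 0.275). The 1 regulator called at any dose in the liver was Irs2, an insulin receptor substrate, at 8 Gy (-1.13, adjusted p = 0.0232). Mlxipl, which encodes the glucose-responsive factor ChREBP, was -0.39 at 12 Gy (adjusted p = 0.0911) with a trend of -0.40 (adjusted p = 0.0172, limma), under the fold limit. The 8 liver X receptor targets outside the list of 10 had a median of -0.07 and 0 called at 12 Gy.

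Of 20 other lipogenic genes, 2 were called lower in the liver at 12 Gy and 1 higher (0.73% of probes were called higher). Mid1ip1, a paralogue of Thrsp, fell by 1.09 on the log2 scale (adjusted p = 0.00597, limma) and Scd3, a desaturase next to Scd1, by 1.33 (adjusted p = 0.0266). For Scd3, too, the study's text gives the opposite direction. Scd3 is close to Scd1 in sequence, and how far their probes share signal was not tested. Pklr, the liver pyruvate kinase, was called at 8 Gy (-1.22, adjusted p = 0.0439). Lpin1, a phosphatidate phosphatase that also acts with fasting regulators, rose by 1.14 (adjusted p = 0.0322, limma), and the study's text also gives a rise with dose. The 19 cholesterol synthesis genes, targets mainly of SREBP-2, had a median of -0.62 at 12 Gy with 0 called, and 1, the farnesyl diphosphate synthase Fdps, was called for the trend (-1.24, adjusted p = 0.0204).

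Several genes known to rise in fasting rose. In the liver 3 of 16 were called higher at 12 Gy, with a median of 0.62 over the 16. They were Angptl4, an inhibitor of lipoprotein lipase (1.36, adjusted p = 0.00219, limma), and the fatty acid hydroxylases Cyp4a14 (2.19, adjusted p = 0.00993) and Cyp4a10 (1.32, adjusted p = 0.0480). At 8 Gy 1 of the 16 was called higher (0.839% of probes), Angptl4 at 1.13. In the lung 5 of 15 tested were called higher at 12 Gy (3.02% of probes), among them Igfbp1, an insulin-like growth factor binding protein (2.36), Angptl4 (2.17) and Pdk4, the kinase that shuts off pyruvate dehydrogenase (1.97).

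Other lists in the lung at 12 Gy are set beside 3.02% of probes called higher and 4.27% called lower. Pmvk was the 1 of 19 cholesterol synthesis genes called (1.24 higher, adjusted p = 0.000226, limma). Stard4, a sterol carrier, was called lower in the lung at 8 Gy (-1.10, adjusted p = 0.00602, limma), where 1.99% of probes were. Among 20 tested regulators 0 were called, with a median of 0.24. The circadian clock is known to act on lipogenic genes, and its genes formed another list. In the liver Per1 was called higher at 4 Gy (1.08) and 8 Gy (1.06), and Ciart at 8 Gy (1.25, adjusted p = 0.0479, limma). At these doses 0.321% and 0.839% of probes were called higher, and 0 of 12 tested clock genes were called at 12 Gy. In the lung 2 of 12 tested clock genes were called higher at 12 Gy, Per1 (1.08) and Cry2 (1.03). Nr1d1 was the 1 called lower (-1.33, adjusted p = 0.00433, limma).

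**Figure D5:**
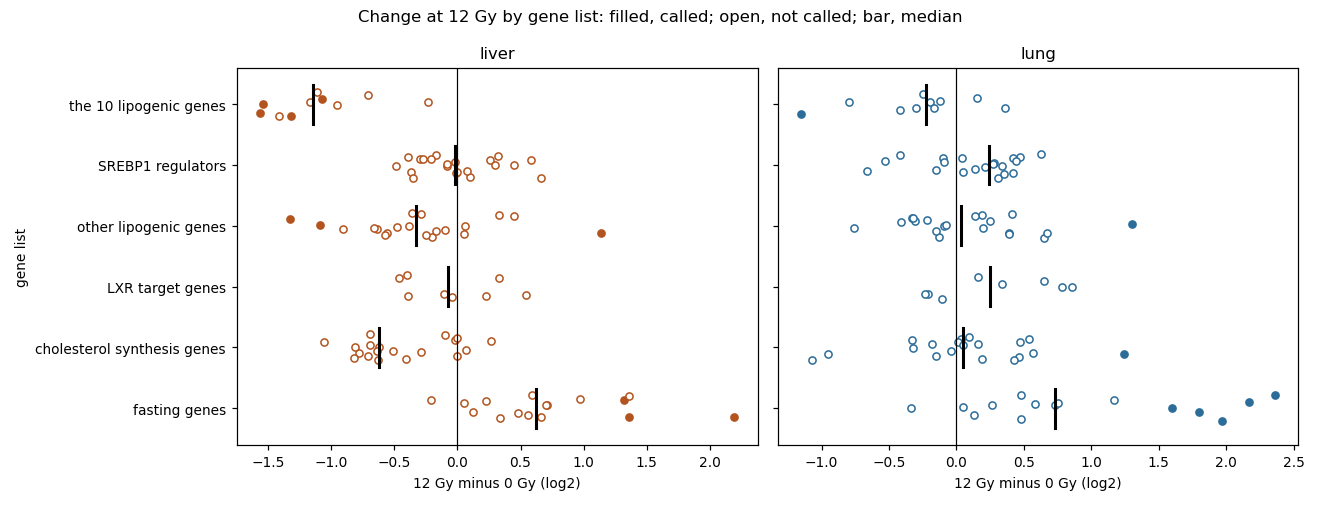
Log2 difference between 12 and 0 Gy (horizontal axis) for the tested genes of 6 lists (vertical axis) in liver and lung. Filled points were called, open points were not, and bars are list medians, which in the liver run from -1.14 for the 10 lipogenic genes to 0.62 for the fasting genes.

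The genes outside the list whose liver profile was most like that of Srebf1 were found by Pearson's correlation over the 18 liver arrays, among 12020 genes well above background on all of them. They were Nudt7, a peroxisomal coenzyme A hydrolase (r = 0.939), Atg4b, an autophagy protease (0.935), Sec61b, of the endoplasmic reticulum translocon (0.930), Ifi35 (0.927) and Tmem147 (0.927). Nudt7 was 1.90 lower at 12 Gy (adjusted p = 6.16e-06, limma). Within the list r with Srebf1 ran from 0.554 for Me1 to 0.907 for Elovl6. These 18 points share dose and slide, and r is given as a description only.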

How the data were processed

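RNA of liver and lung was hybridised to 1-colour Agilent arrays, 36 for mRNA. The authors deposited, for spots and for the background around them, the median intensity over pixels, as given by Agilent Feature Extraction with no normalization between arrays. The deposited processed signal (also an intensity) and the series table of linear intensity values served as alternatives. Median intensities were corrected by normexp (offset 0), control spots dropped and outlier spots set to missing. Arrays of a tissue, or all 36 for comparisons between tissues, were quantile-normalized, and spots of a probe averaged as log2 values. Probes well above background (at least 0.5 of spots) on 1 array or more were tested in limma 3.58.1 (R 4.3.3, statmod 1.5.0) with 6 dose groups or a linear dose, and Benjamini-Hochberg adjustment within each comparison. Calls needed an absolute log2 difference above 1 and an adjusted p below 0.05. The pipeline was tested on simulated data. Symbols came from RefSeq transcripts (GRCm38.p6). Figures used Python 3.11.15 and matplotlib 3.10.9.

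Named are all 10 genes and, from each list and tissue, up to 4 genes called at 1 dose or more, by size, with defining cell markers, the main regulators and the 5 genes most like Srebf1. Scap, Insig1, Insig2, Nr1h3, Mlxipl, Car3, Fabp4, Cidea and the genes called for the trend alone were named after their values were seen. Some genes that this rule names are not reported here. Members and lists were chosen with earlier results of these data known. The 36 miRNA arrays were not used. Replicates are 3 mice per dose, whose number limits the precision. Alternatives were the offset, scaling, deposited values, filters, slide, probe averaging, the fold limit, a joint fit, a mouse block and leaving out each mouse.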

Additional observations from a re-analysis of the deposited data

Results flagged for a closer look

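Dose trends that differed between lung and liver in the test of the difference itself are listed here, as lung minus liver in log2 over 12 Gy. They were 1.77 for Srebf1 (adjusted p = 0.000144, limma), 1.51 for Fasn (adjusted p = 0.00708), 2.10 for the brighter Acacb probe (adjusted p = 0.00232; 0.54 and adjusted p = 0.236 for the dimmer) and 2.19 for the second Pnpla3 probe (A_55_P2025514, SE 0.649, adjusted p = 0.0177). On that Pnpla3 probe the trend was -2.37 in liver and -0.18 in lung, and its brighter probe gave a difference of 0.79 that did not pass (adjusted p = 0.439). With slide as a fixed term no probe of the arrays was called in this comparison.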

How the results depend on the processing

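Counts of genes called among the 10 changed as follows. In the liver, 2 at 4 Gy became 0 with slide as a fixed term, 1 with slide as a random block and 1 with all 36 arrays fitted together. At 8 Gy 3 became 0 with slide as a fixed term, 5 with probes of a transcript averaged and 6 without the fold limit. At 12 Gy 4 became 0 with slide as a fixed term, 7 with an offset of 50 and 7 with probes well above background on at least 3 arrays, and for the trend 7 became 0 with slide as a fixed term. In the lung, 1 at 12 Gy became 0 with an offset of 50, a random slide block, averaged probes or the joint fit. For the lung trend 1 became 0 with scaling to the 75th percentile, the series values, slide as a fixed term, a random slide block or averaged probes, and 2 without the fold limit. The tissue difference in trend went from 3 to 5 with the processed signal, 6 with the series values, 5 without the fold limit and 0 with slide as a fixed term. The level difference at 0 Gy went from 4 to 7 with the processed signal and 7 with the series values, where Acly turned from 0.07 to -1.10 and -1.23. Leaving out 1 mouse at a time gave 1 to 2 at 4 Gy, 2 to 6 at 8 Gy, 2 to 7 at 12 Gy and 6 to 7 for the trend in the liver. In the lung it gave 0 to 1 at 12 Gy and 0 to 1 for the trend. For the comparisons between tissues, the liver and lung arrays of the same number were left out together. That gave 3 to 4 for the difference in trend and 4 to 5 for the level at 0 Gy. In the liver, the 4 Gy count was 1 when control mouse 1 or 11 was left out, and also when mouse 4, 14 or 24 of that dose was, 8 Gy rose to 6 without 8 Gy mouse 5, and 12 Gy was 2 without 0 Gy mouse 11 or 12 Gy mouse 6 and 7 without 8 Gy mouse 25. The cause of these changes was not tested.

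The mouse number as a replicate block left 3 genes for the difference in trend and 4 for the level at 0 Gy. The numbers were not taken as pairing the tissues, since 3 of 18 same-numbered pairs had a correlation above 0.1 (median 0.021). Faint probes, chiefly Pnpla3 in the liver, are limited by their signal over background.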
